A study of Homo sapiens with 6 samples.

Results

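Long intergenic noncoding RNAs (lincRNAs) are transcripts without a recognised protein that arise between protein-coding genes. The genes described here are all autosomal genes of type lincRNA in GENCODE 29 selected on their level, a mean of 100 or more normalized counts over the 6 libraries, leaving out microRNA host genes (symbols that begin with MIR and end with HG). They numbered 83 of the 58381 gene IDs in the deposited table. Of the 7417 lincRNA genes listed, 2664 had a read and 92 reached that mean, of which 6 were microRNA host genes and 4 lay on the X chromosome, with 1 gene counted in both. The 3 members nearest the limit were SNHG9, DUBR and LINC00294, with means of 111, 108 and 101 normalized counts, and the 3 genes just below it were RAB30-AS1, NUP50-DT and AC012313.1, with means of 99.6, 98.1 and 97.4. Because each gene was chosen for its level, the levels are a description, while the comparison of the groups was not part of the choice.

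The cells were MCF10AT1, a human breast epithelial line derived from a mouse xenograft of MCF10A cells that carry an activated HRAS gene. Both groups came from this 1 line, in the same medium with horse serum, insulin, EGF, cholera toxin and hydrocortisone, and received no other agent. Antibodies to the surface proteins CD24 and CD44 were used to sort a CD24low, CD44high fraction (called CSC in the descriptions) and a CD24high, CD44-positive fraction (called Bulk), with 3 libraries each. Ribosomal RNA (rRNA) was removed from the total RNA before strand-specific libraries were made. The labels do not tell whether replicates were grown apart, and the spread behind each p-value may therefore be technical.

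The libraries held 16691162 to 27293177 reads as summed over genes. A read counted in several genes enters that sum more than once, and shares of reads given here refer to it. CD24 was 4018 ± 1681 normalized counts in CD24high and 762 ± 542 in CD24low (SD, n = 3), and its groups did not overlap. RNA of CD44, the other sorting marker, was at 8475 ± 562 in CD24high and 7547 ± 716 in CD24low, with overlap (difference -0.17). Epithelial markers varied in level. KRT8 lay between 23087 and 46895 and KRT5 between 22521 and 31907 normalized counts. KRT14 lay between 178 and 571, GATA3 between 110 and 345 and TP63 between 88.1 and 291. ESR1 stayed between 8.60 and 39.5 and KRT19 between 5.29 and 30.7. The 8 luminal markers summed to 64326 to 87147 in CD24high and 44272 to 74296 in CD24low, with overlap. The 3 endothelial markers summed to 85.5 to 395 and 105 to 342, mostly PECAM1. Blood markers summed to 0.881 to 5.93, with CD3E and HBB at 0 in all 6 libraries. The 9 mesenchymal or fibroblast markers summed to 4500 to 8465 in CD24high and 17121 to 59638 in CD24low, with COL3A1 at 0 in 2 CD24high libraries and no marker of the 9 at 0 in CD24low. The 6 basal markers summed to 48333 to 61687 in CD24high and 37260 to 40199 in CD24low. Their part in the differences described here was not tested. The rRNA share of reads was 1.30%, 2.27% and 10.2% in CD24high 1 to 3, and 7.15%, 7.07% and 1.97% in CD24low 1 to 3, counting genes of rRNA type.

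Abundant lincRNA genes differ widely in what they make. MALAT1 stays in nuclear speckles, NEAT1 forms the core of paraspeckles, and NORAD binds PUMILIO proteins in the cytoplasm and so relieves their targets. Some annotated lincRNA genes are shells around a small structured RNA, such as a small nucleolar RNA (snoRNA), the telomerase template or a spliceosomal RNA. Others are spliced hosts of a snoRNA, and many lie in duplicated stretches of the genome, where a read can match more than 1 copy. Total RNA libraries without poly(A) selection, as used here, record all of these kinds. By kind, in 8 members a small RNA annotated within an exon had at least 52.5% of the member's level. A further 23 belong to families linked by sequence shared among members, and 7 others have at least 50% of their 31-mers (stretches of 31 bases) in other genes combined. Of the rest, 6 are snoRNA hosts, 3 are MALAT1, NEAT1 and NORAD, 4 share an exon with a coding gene on the same strand, and 32 are none of these. The kinds are not exclusive, and each member was placed in the first that held: NORAD, with 56.4% of its 31-mers in other genes, and SNHG4, which shares an exon with the coding gene MATR3, are counted by their function.

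The sequences below show these kinds, and all are from GENCODE 29 transcripts. The first is the start of the AC007952.4 transcript, whose capitals are the snoRNA SNORD3D (U3, a guide for rRNA processing), lying inside it on the same strand.

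AC007952.4, bases 1 to 248: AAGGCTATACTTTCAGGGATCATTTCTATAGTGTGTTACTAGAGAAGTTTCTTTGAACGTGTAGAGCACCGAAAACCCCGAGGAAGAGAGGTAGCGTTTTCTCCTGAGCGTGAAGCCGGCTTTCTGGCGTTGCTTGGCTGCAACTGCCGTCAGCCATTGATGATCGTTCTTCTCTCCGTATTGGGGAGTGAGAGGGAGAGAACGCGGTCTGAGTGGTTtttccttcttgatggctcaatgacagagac

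The second is a stretch of AC017002.1, whose capitals are bases that lie in runs of 31 or more identical to the lincRNA CYTOR. In all, 824 of its 881 bases (93.5%) did so, in 5 runs, the longest of 431 bases.

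AC017002.1, bases 40 to 279: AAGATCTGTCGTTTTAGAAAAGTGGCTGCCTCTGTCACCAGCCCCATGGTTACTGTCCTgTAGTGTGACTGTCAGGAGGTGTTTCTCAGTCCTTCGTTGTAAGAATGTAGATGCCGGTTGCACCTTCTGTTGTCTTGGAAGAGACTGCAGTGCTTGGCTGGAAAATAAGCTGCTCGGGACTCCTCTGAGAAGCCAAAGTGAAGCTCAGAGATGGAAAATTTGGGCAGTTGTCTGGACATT

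The third is from NORAD, whose capitals are the PUMILIO recognition motif TGTANATA, with a pair of copies side by side.

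NORAD, bases 1359 to 1458: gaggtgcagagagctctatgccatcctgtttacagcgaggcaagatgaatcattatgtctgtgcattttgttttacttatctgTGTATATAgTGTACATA

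NORAD held 15 such motifs in 5339 bases, or 2.81 per kb. The other members held 0.111 per kb and all GENCODE transcripts of at least 200 bases 0.0925 per kb, read on the transcript strand. In 67 of the 83 members the longest transcript had none. NEAT1, with 6 motifs in 22743 bases, was next by count. A match to these letters is a description and not a bound site.

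The members took 1.57% to 2.29% of the reads of a library, and the top 2, AC007952.4 and RMRP, made up 78.5% to 86.3% of that. The median of the members' means was 272 normalized counts, and 32 members had a mean under 200. Per kb of annotated exon, the median member stood at 139 normalized counts. RMRP was at 556843 per kb, AC007952.4 at 385450, AL356488.2 at 6350, MALAT1 at 5420, TERC at 2391 and SNHG8 at 1430, all as means over the 6 libraries. The SD over libraries was 42536 per kb for RMRP and 85586 for AC007952.4, and 1099 for AL356488.2 and 1489 for MALAT1, so AL356488.2 and MALAT1 did not differ beyond their spread. In the plot of levels by rank, the points of the 2 groups are mixed for most members.

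**Figure D1:**
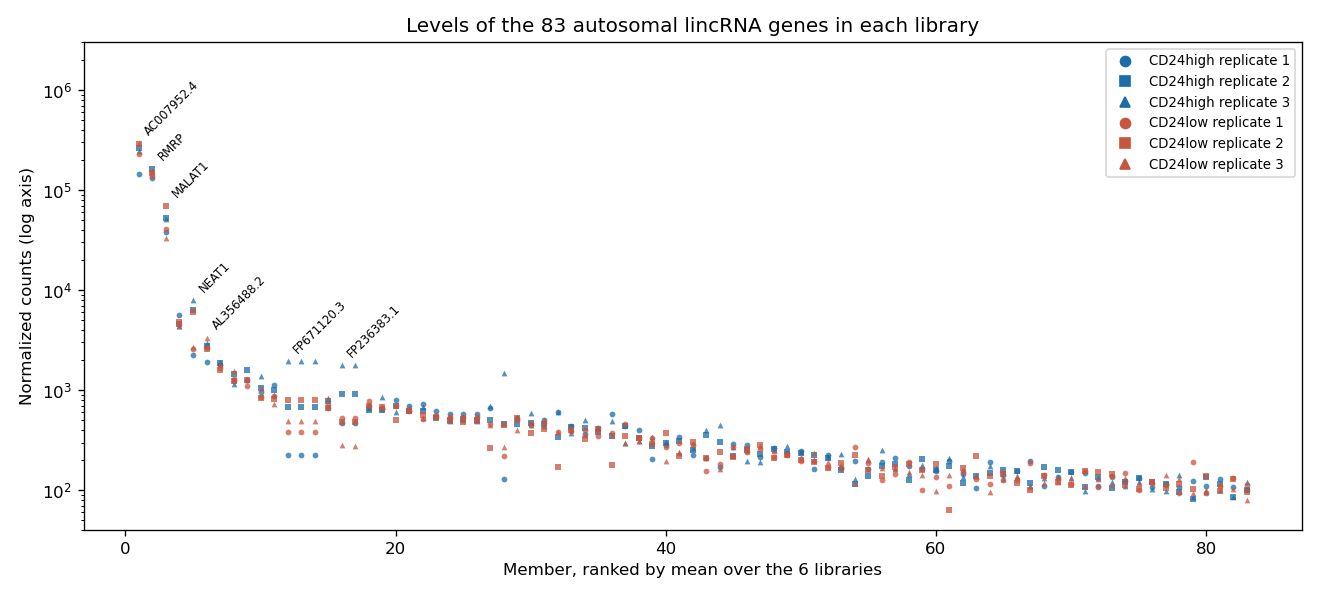
Normalized counts (log axis) of the 83 members in each of the 6 libraries, with members ordered by their mean; colour gives the fraction and shape the replicate number. AC007952.4 and RMRP lie above all other members in every library, and the genes near FP671120.3 and FP236383.1 scatter most widely.

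No member passed the unpaired test between the fractions, in which fewer cells that make an RNA and less of it per cell cannot be told apart. Each difference is the mean of CD24low less that of CD24high, taken on log2 (normalized count + 1), and was tested with limma over 16047 genes with Benjamini-Hochberg adjustment at 0.05. Of the 83 members, 0 passed, against 0.0% of all genes tested. DESeq2 and edgeR, run on the recovered reads, also gave 0 members, against 2.51% and 0.0% of all genes tested. The smallest adjusted p among the members in these unpaired fits was 0.198 with limma, 0.0596 with DESeq2 and 0.228 with edgeR. The outcome depends on pairing. When libraries of the same number were paired, limma and edgeR each called 5 members, all lower in CD24low. Among the 16047 genes they then called 716 and 705. The 5 were MANCR, LNCAROD, FAM157C, AC245041.1 and AC245041.2. The labels do not say that a shared number marks a shared batch, so p-values elsewhere are unpaired. At an unadjusted limma p under 0.05 there were 13 members (15.7%), 1 higher and 12 lower in CD24low, beside 13.5% of all genes tested, 6.34% higher and 7.15% lower.

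The 2 groups of libraries did not overlap for 18 members (21.7%), beside 19.5% of all genes tested and 19.7% of those with a mean of at least 100. Of these members, 14 (16.9%) were lower in all 3 CD24low libraries than in any CD24high library and 4 (4.82%) were higher. Among all genes tested the shares were 9.32% lower and 10.2% higher, and among those with a mean of at least 100 they were 9.2% and 10.5%. A total of 11 differences (13.3%) reached 0.5 in size, beside 13.4% of all genes tested and 7.13% of those with a mean of at least 100. The median difference over the members was -0.09, with 59 (71.1%) negative and 24 positive. Over all genes tested the median was -0.01, with 51.0% negative. The median over 10469 protein-coding genes with a mean of at least 100 was also -0.01. The 374 lincRNA genes tested with a mean under 100 had a median difference of -0.16, with 62.6% negative. Of these 374, 13.6% were lower and 5.08% higher without overlap. Counting each family of members that share sequence once, a choice made after the data were seen, left 67 genes. Of these 67, 10 were lower and 3 higher without overlap, and 68.7% were negative, with a median of -0.08. In the plot of differences, the 4 widest SE bars belong to FP671120.3, FP671120.4, FP236383.2 and FP236383.3.

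**Figure D2:**
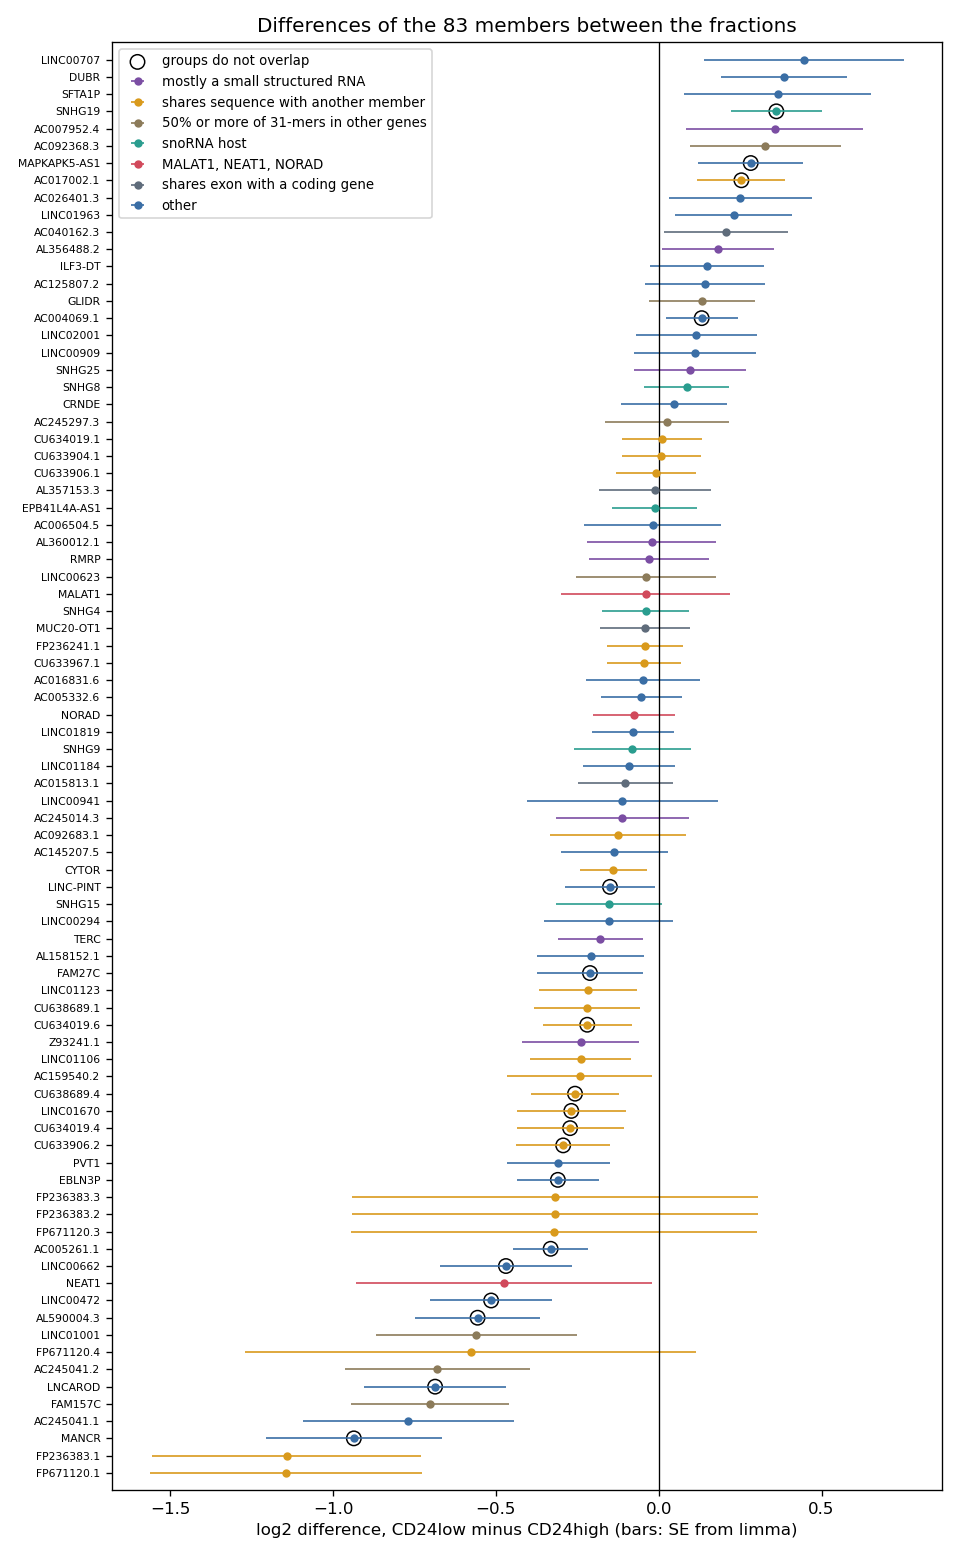
The log2 difference, CD24low minus CD24high, of each of the 83 members with its SE from limma, coloured by kind of gene; circles mark the 18 members whose groups do not overlap. The differences run from -1.15 to 0.45, with 59 of 83 (71.1%) to the left of 0, beside 51.0% of all genes tested.

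MALAT1, NEAT1 and NORAD act in nuclear bodies or with PUMILIO proteins, and none of the 3 differed beyond the spread between libraries. MALAT1 (chr11:65497688-65506516, plus strand, GRCh38) had 38469, 52551 and 51640 normalized counts in CD24high replicates 1 to 3 and 40898, 69956 and 33609 in CD24low replicates 1 to 3. Both its highest and its lowest library were CD24low, so the CD24high values lay inside the CD24low range. Its difference was -0.04 (SE 0.26, limma adjusted p = 0.964), and its sign was positive, at 0.02, with DESeq2 and with edgeR.

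NEAT1 (chr11:65422774-65445540, plus strand), which lies upstream of MALAT1, had 2231, 6388 and 7931 normalized counts in CD24high and 2568, 6068 and 2701 in CD24low. CD24high 2 and 3 and CD24low 2 were at 6068 or more, and the other libraries were at 2701 or less. The difference was -0.48 (SE 0.46, limma adjusted p = 0.688), and it was 0.06 without both libraries numbered 3. NEAT1 had a coefficient of variation over the 6 libraries of 52.5%, where the median member had 14.1% and the median protein-coding gene with a mean of at least 100 had 12.4%. NORAD (chr20:36045622-36050960, minus strand) had 5692, 4606 and 4347 in CD24high and 4603, 4842 and 4367 in CD24low. Apart from CD24high 1 the values were close, and the difference was -0.08 (SE 0.13, limma adjusted p = 0.827).

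The proteins that these RNAs work with gave no call either. Of 18 paraspeckle proteins, 18 nuclear speckle proteins and 7 PUMILIO proteins or NORAD partners tested, 0 passed limma or DESeq2, beside 0.0% and 2.51% of all genes tested. At an unadjusted limma p under 0.05 there was 1 paraspeckle gene, beside 13.5% of all genes tested. That gene was NONO, a core paraspeckle protein, with 4915 ± 4.52 normalized counts in CD24high and 5735 ± 248 in CD24low (difference 0.22, SE 0.10, limma adjusted p = 0.369). PSPC1, its partner, was at 1384 ± 58.5 and 1181 ± 143 (difference -0.24). The speckle protein genes PNN and RNPS1 differed by -0.22 and 0.18. PRPF19 and KHDRBS1, which code for proteins found with NORAD, differed by 0.20 and 0.19. The medians of the 3 lists were 0.02, -0.03 and 0.05. TUG1, a nuclear lncRNA that GENCODE types otherwise, was at 1856 ± 191 and 1910 ± 175.

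In 8 members most of the level was that of a small structured RNA annotated in an exon, and in none of the 8 did the groups separate. AC007952.4 (chr17:19112000-19112636, minus strand) had 146128, 264574 and 245328 normalized counts in CD24high and 231948, 291862 and 293348 in CD24low. CD24high 1 was lowest, and the other libraries ran from 231948 to 293348. The difference was 0.36 (SE 0.27, limma adjusted p = 0.6). SNORD3D inside it had 99.6% of this level, so the value is that of U3. U3 has further copies: SNORD3A, which shares 69.9% of the 31-mers of AC007952.4, had a mean of 308897. SNORD3B-1 and SNORD3B-2 had means of 254822 and 254866, so a read that matches several copies may be counted in each. How such reads were counted is not given in the sources used here.

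RMRP (chr9:35657751-35658018, minus strand), the RNA of the RNase MRP that cuts precursor rRNA, had 133096, 164564 and 155400 in CD24high and 139752, 148304 and 154287 in CD24low. Its values spanned a narrow range in both groups, and the difference was -0.03 (SE 0.19, limma adjusted p = 0.961). AL356488.2 (chr1:109100193-109100619, plus strand) holds SCARNA2, a guide RNA of Cajal bodies, and was at 2553 ± 543 in CD24high and 2870 ± 424 in CD24low. TERC (chr3:169764520-169765060, minus strand), the template RNA of telomerase, had 1256, 1605 and 1268 in CD24high and 1090, 1260 and 1281 in CD24low. Its groups overlapped, with a difference of -0.18 (SE 0.13, limma adjusted p = 0.582). AL360012.1 and Z93241.1 hold RNU11 and RNU12 of the minor spliceosome and did not separate either: AL360012.1 ran from 110 to 169 in CD24high and 118 to 143 in CD24low, and Z93241.1 from 238 to 338 and 218 to 294. In AC245014.3, RNVU1-14 (a variant U1 gene) had 52.5% of the level, and in Z93241.1, RNU12 had 65.9%. The differences of the 8 members ran from -0.24 to 0.36.

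SnoRNA hosts carry a snoRNA, as a rule in an intron, and their spliced exons are usually left to decay. Apart from SNHG25, described with the small RNAs, 6 members fall in this class. In SNHG8, SNHG15 and SNHG9 the snoRNA also lies within an annotated exon, so their counts can include it. These snoRNAs, SNORA24, SNORA9 and SNORA78, had means of 264, 49.3 and 19.3 normalized counts. SNHG19 (chr16:2154797-2155358, minus strand) was the host whose groups did not overlap. It had 215, 228 and 193 normalized counts in CD24high and 256, 283 and 278 in CD24low. Each CD24low library was above each CD24high library, and the difference was 0.36 (SE 0.14, limma adjusted p = 0.309, DESeq2 adjusted p = 0.358). Its head-to-head neighbour TRAF7, whose start lies 340 bases away, was at 2034 ± 220 and 2149 ± 73.9. SNHG8 was the most abundant host, at 1280 ± 149 and 1359 ± 167, and SNHG4, SNHG15, EPB41L4A-AS1 and SNHG9 differed by -0.04, -0.15, -0.01 and -0.08.

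Over all 26 snoRNA host lncRNAs tested, of any gene type, 0 passed limma and 1 passed DESeq2, beside 2.51% of all genes tested. That gene was SNHG3, which is no member, with 14359 ± 803 in CD24high and 10769 ± 885 in CD24low (difference -0.42, limma adjusted p = 0.192, DESeq2 adjusted p = 0.0284). The median over the 26 was -0.05, with 11 positive and 15 negative. Of 9 protein-coding hosts, 0 passed either tool, and those with the smallest p, RC3H2 and TAF1D, differed by -0.27 and -0.29.

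The largest differences without overlap were in members with under 5% of their 31-mers in genes elsewhere. MANCR (chr10:4650185-4678154, minus strand), named for its association with mitosis and studied in breast cancer lines, had 197, 173 and 210 normalized counts in CD24high and 110, 64.0 and 143 in CD24low. All 3 CD24low libraries were lower, and CD24low 3 lay nearest to CD24high. The difference was -0.94 (SE 0.27, limma adjusted p = 0.198, DESeq2 adjusted p = 0.0596); the group means were 194 ± 19.1 and 106 ± 39.7. Without CD24low replicate 3 the difference was -1.19 and limma's adjusted p was 0.0473. MANCR was also called when libraries were paired by number. Its nearest coding neighbour by start, AKR1E2, lies 108 kb away and was at 49.3 ± 8.20 and 56.0 ± 12.7.

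LNCAROD (chr10:52450874-52755409, minus strand), named as an activating regulator of DKK1, had 668, 509 and 690 in CD24high and 464, 267 and 452 in CD24low. Again CD24low 2 was the lowest library, and the groups did not overlap. The difference was -0.69 (SE 0.22, limma adjusted p = 0.229, DESeq2 adjusted p = 0.0789). LNCAROD, too, was called only when libraries were paired by number. DKK1, a secreted WNT inhibitor, was at 3746 ± 563 in CD24high and 3951 ± 716 in CD24low (difference 0.07, limma adjusted p = 0.881).

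The promoters of these genes are shown because they had the largest differences among members whose groups do not overlap and because the series title names RUNX transcription factors. They are from RefSeq (GRCh38.p14), each with 250 bases before and 50 after a start, and 21 members had an entry. The motifs searched, on both strands, were TGTGGT for RUNX factors, TGACTCA for AP-1, CACGTG for E-box factors and GGAATG for TEAD factors. Capitals mark matches, read as the reverse complement where they lie on the other strand.

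MANCR, chr10:4678021-4678320, minus strand: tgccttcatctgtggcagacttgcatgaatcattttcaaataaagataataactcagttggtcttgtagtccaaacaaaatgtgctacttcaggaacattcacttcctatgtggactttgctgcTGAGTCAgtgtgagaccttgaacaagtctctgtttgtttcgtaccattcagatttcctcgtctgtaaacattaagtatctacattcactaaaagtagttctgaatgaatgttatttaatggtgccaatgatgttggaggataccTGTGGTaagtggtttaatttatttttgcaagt

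LNCAROD, chr10:52455223-52455522, minus strand: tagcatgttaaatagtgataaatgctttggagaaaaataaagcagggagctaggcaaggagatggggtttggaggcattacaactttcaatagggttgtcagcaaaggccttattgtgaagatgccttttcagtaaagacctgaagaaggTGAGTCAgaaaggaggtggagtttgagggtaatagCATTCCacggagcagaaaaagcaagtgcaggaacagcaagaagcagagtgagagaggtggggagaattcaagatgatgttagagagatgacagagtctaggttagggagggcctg

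The MANCR window holds a RUNX match 18 bases after the start and an AP-1 match on the other strand 126 bases before it. That of LNCAROD holds an AP-1 match 100 bases before and a TEAD match 65 bases before the start, both on the other strand, and a second LNCAROD promoter at another start held none of the 4. Of 29 member promoters, 5 (17.2%) held the RUNX motif, beside 13.1% of all 35116 promoters, and 4 (13.8%) held the AP-1 motif, beside 4.95%. The 5 include overlapping LINC-PINT windows that hold the same RUNX site, so that site is counted more than once. For the E-box and TEAD motifs the shares were 2 (6.9%) and 2 (6.9%), beside 7.26% and 14.0%. With so few promoters these shares are a description. The members with a RUNX match were EPB41L4A-AS1, LINC-PINT, MANCR and NORAD. RUNX1 was at 1406 ± 400 and 1062 ± 115 normalized counts, and RUNX2 from 29.2 to 37.5 and from 88.2 to 182 (difference 1.85, limma adjusted p = 0.0676, DESeq2 adjusted p = 1.22e-05).

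A further 5 members with little shared sequence were lower in every CD24low library. AL590004.3 (chr6:3904920-3911979, minus strand), with 1 exon block of 7060 bases, had 191, 148 and 175 normalized counts in CD24high and 115, 139 and 96.0 in CD24low. LINC00472 (chr6:71344344-71420769, minus strand), studied for its lower level in aggressive breast tumours, had 193, 176 and 253 in CD24high and 128, 138 and 167 in CD24low. LINC00662 (chr19:27684580-27793940, minus strand) had 163, 205 and 180 in CD24high and 100, 159 and 141 in CD24low. In both LINC00472 and LINC00662 the nearest values of the groups were close, at 176 and 167 and at 163 and 159.

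AC005261.1 (chr19:57304305-57308562, plus strand), within a region of zinc finger genes, was at 677 ± 52.4 in CD24high and 537 ± 20.5 in CD24low. EBLN3P (chr9:37079857-37090507, plus strand), a transcribed copy of an ancient bornavirus gene, had 1123, 995 and 900 in CD24high and 881, 820 and 731 in CD24low. The differences of these 5 members were -0.56, -0.51, -0.47, -0.33 and -0.31, with limma adjusted p between 0.265 and 0.357. LINC-PINT, a p53-induced RNA, also did not overlap, at 252 ± 23.4 and 227 ± 3.60 (difference -0.15, limma adjusted p = 0.675). These values are of its lincRNA entry alone. AC016831.6, a member that shares 2010 exon bases with it on the same strand, had a mean of 181. A LINC-PINT entry of another gene type had a mean of 222.

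Besides SNHG19, 3 members were higher in every CD24low library. MAPKAPK5-AS1 (chr12:111839764-111842902, minus strand) had 146, 118 and 134 normalized counts in CD24high and 152, 168 and 163 in CD24low, with a difference of 0.28 (SE 0.16, limma adjusted p = 0.481). It overlaps an exon of MAPKAPK5 on the other strand, which was at 777 ± 27.7 and 721 ± 41.5. Its reads can be told from those of the coding gene only if the counting used strand. Values by strand at MALAT1 are given below with ribosomal DNA. AC004069.1 (chr4:105137280-105140619, minus strand) was at 664 ± 28.4 and 727 ± 40.5, and 28.1% of its 31-mers also occur in HNRNPA1, which had a mean of 22370. AC017002.1, the third, is described with CYTOR. In the plot of 10 members by library, the smallest gaps between groups are close to the gaps between libraries of 1 group.

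**Figure D3:**
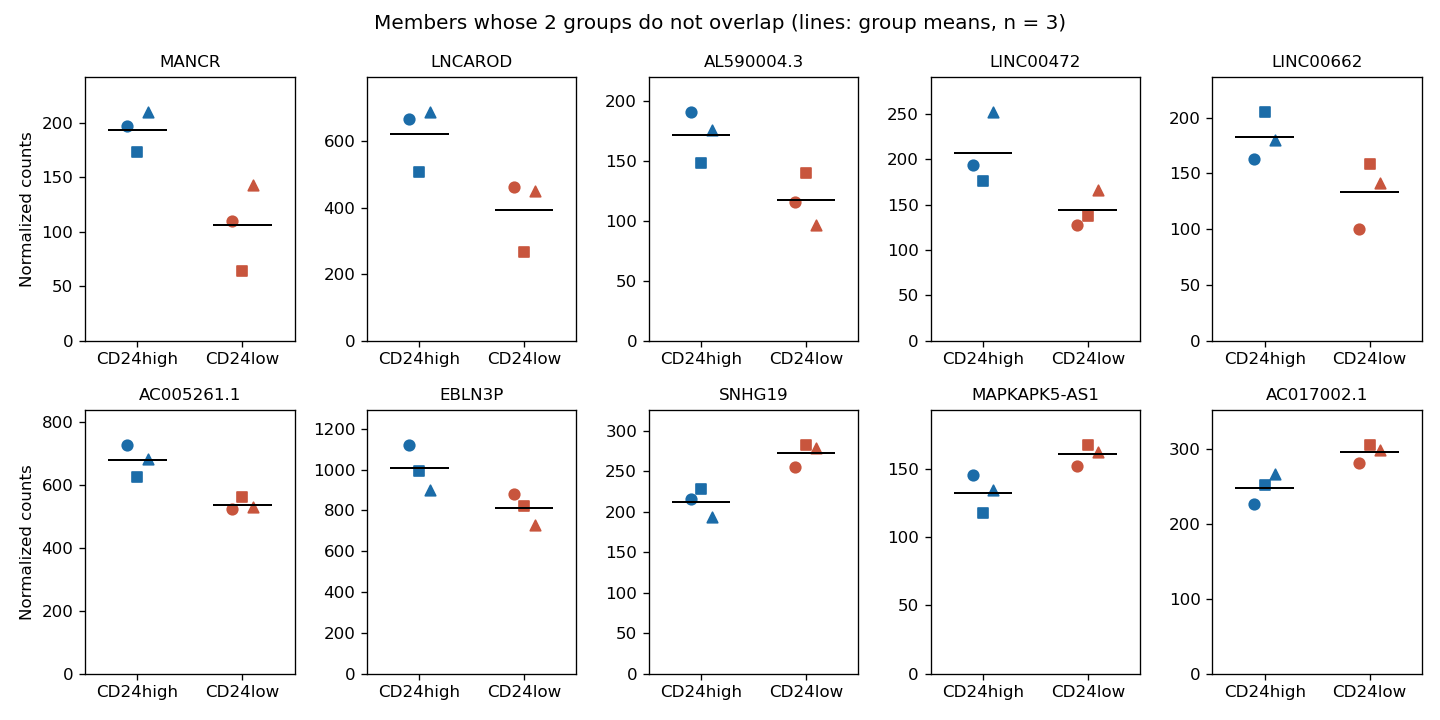
Normalized counts of 10 members whose groups do not overlap, by fraction; points are libraries (circle, square and triangle for replicates 1, 2 and 3) and lines are group means of n = 3. MANCR shows the widest separation, from 173 to 210 in CD24high and 64.0 to 143 in CD24low.

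Besides SNHG4, 4 members share an exon with a coding gene on the same strand, among them MUC20-OT1 and AC015813.1, and they differed by -0.10 to 0.21 with overlap. The 32 members of no other kind ran from -0.94 to 0.45, with 9 (28.1%) lower and 2 (6.25%) higher without overlap, beside 9.32% and 10.2% of all genes tested.

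Neighbouring coding genes were set beside the members. Of 57 members whose nearest coding gene by start was tested, 26 had a difference of the same sign as that gene, and 0 had both genes without overlap in the same direction. Across these genes, which are not independent replicates and share the same libraries, Pearson's r was -0.01 and Spearman's rho -0.01. Of the members, 9 start head to head within 2 kb of a coding gene, among them RMRP with CCDC107, CRNDE with IRX5 and SNHG9 with RPS2. AL357153.3 differed by -0.01, while TTC9, whose start is 583 bases away on the other strand, differed by -0.95 and did not overlap between groups.

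No member known from studies of carcinomas passed the test. PVT1 (chr8:127794533-128101253, plus strand), a neighbour of MYC, had 968, 1058 and 1392 normalized counts in CD24high and 851, 836 and 1055 in CD24low. CD24low 3 lay above CD24high 1, so the groups overlapped, and the difference was -0.31 (SE 0.16, limma adjusted p = 0.426). CRNDE, LINC00941 and LINC00707 differed by 0.05, -0.11 and 0.45. LINC00707 had the highest difference of any member, but its groups overlapped, at 195, 117 and 129 in CD24high and 273, 227 and 119 in CD24low. Over the 25 of 37 listed carcinoma lncRNAs that were tested, 7 of them members, 0 passed limma and 2 passed DESeq2, beside 2.51% of all genes tested, both lower and neither a member. These were MIR205HG (1128 ± 163 and 495 ± 133, DESeq2 adjusted p = 2.45e-06) and LINC00665 (88.1 ± 23.2 and 41.5 ± 8.07, DESeq2 adjusted p = 0.0412). H19, also no member, had 14.9, 42.5 and 0 normalized counts in CD24high and 308, 1603 and 169 in CD24low (limma adjusted p = 0.125, DESeq2 adjusted p = 0.0577). Of 10 listed p53-linked lncRNAs, 3 were tested and 0 passed either tool, with NEAT1 and LINC-PINT among them.

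In all, 23 members fall in 7 families, linked where at least 50% of a member's 31-mers are found in another member, and 17 of the 23 lie on chromosome 21. How reads that match several genes were counted is not given in the sources used here. The copies FP236383.2, FP236383.3 and FP671120.3 had means of 755.3, 755.4 and 755.6 normalized counts. MIR6724-1 and MIR6724-3, inside FP671120.1 and FP236383.1, both had 23.379. For these copies the same reads were thus counted at each. Members of a family were not taken as independent measurements. The shared part varies: CYTOR has the smallest and CU638689.4 the next, at 36.7% of its 31-mers, while in several members it is 100.0%. CYTOR (chr2:87454781-87636740, plus strand), a cytoskeleton regulator RNA, had 1774, 1875 and 1914 normalized counts in CD24high and 1650, 1586 and 1822 in CD24low. AC017002.1 (chr2:111491943-111494811, minus strand), which shares most of its bases with CYTOR, had 226, 252 and 266 in CD24high and 281, 306 and 299 in CD24low. AC017002.1 also overlaps the span of MIR4435-2HG on the same strand, with 0 shared exon bases. MIR4435-2HG had a mean of 1337 and differed by 0.05, with overlap. How far its reads entered AC017002.1 was not tested. CYTOR differed by -0.14 with overlap and AC017002.1 by 0.25 without it (limma adjusted p = 0.591 and 0.446).

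A family of 6 genes (CU634019.4, CU634019.6, CU638689.1, CU638689.4, CU633906.2 and LINC01670) supplied 5 of the 14 members that were lower without overlap. CU633906.2 (chr21:6318434-6360415, plus strand) had 224, 210 and 215 normalized counts in CD24high and 173, 165 and 192 in CD24low. The sum over the 6 was 1178, 1143 and 1103 in CD24high and 925, 906 and 1041 in CD24low. A read that matches several of the 6 can enter this sum more than once. The differences of the 6 genes ran from -0.29 to -0.22, with a smallest limma adjusted p of 0.404. A second family on chromosome 21, with 5 genes (CU633967.1, FP236241.1, CU633904.1, CU633906.1 and CU634019.1), was flat, with differences from -0.05 to 0.01 and a median coefficient of variation of 6.5%.

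The widest spread between libraries was in 6 members of ribosomal DNA, the arrays that code for rRNA. FP671120.3, FP236383.2 and FP236383.3 lie whole inside annotated 18S rRNA genes of RefSeq, on the opposite strand, and FP671120.4 shares 93.2% of the 31-mers of FP671120.3. FP671120.3 (chr21:8210384-8211306, minus strand) had 223, 676 and 1955 normalized counts in CD24high and 381, 805 and 494 in CD24low. CD24high 3, the library with the highest rRNA share, stood above the rest, and CD24high 1, with the lowest share, was lowest. The difference was -0.32 (SE 0.62, limma adjusted p = 0.857) and was 0.46 without CD24high replicate 3. The library kit marks strand, but whether the counting used it is not given in the sources used here. AP000769.2, whose 396 exon bases all lie opposite a MALAT1 exon, had a mean of 0.80 normalized counts. RF01871, with 95 bases inside MALAT1 on the same strand, had a mean of 1659. At MALAT1 the counts thus differed by strand. How far reads of rRNA entered the members antisense to it was not tested.

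FP236383.1 (chr21:8380665-8410645, plus strand) and its copy FP671120.1 span a 45S rRNA unit on the strand of the rRNA and had the largest differences of all members. The unit lies within their gene span, and their annotated exons overlap the 5.8S gene in it by 0 bases. FP236383.1 had 471, 919 and 1787 normalized counts in CD24high and 527, 481 and 282 in CD24low. CD24high 1 lay below 2 CD24low libraries, so the groups overlapped, and the difference was -1.14 (SE 0.41, limma adjusted p = 0.286). It was -0.66 without CD24high replicate 3. For comparison, the highest copy of the 5.8S gene RNA5-8SN2 had 68290, 96675 and 327465 in CD24high and 233171, 242646 and 92498 in CD24low. That order of libraries differs from both members: CD24low 1 and 2 were high for 5.8S and not for FP236383.1. The part of rRNA depletion in these values was not tested.

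**Figure D4:**
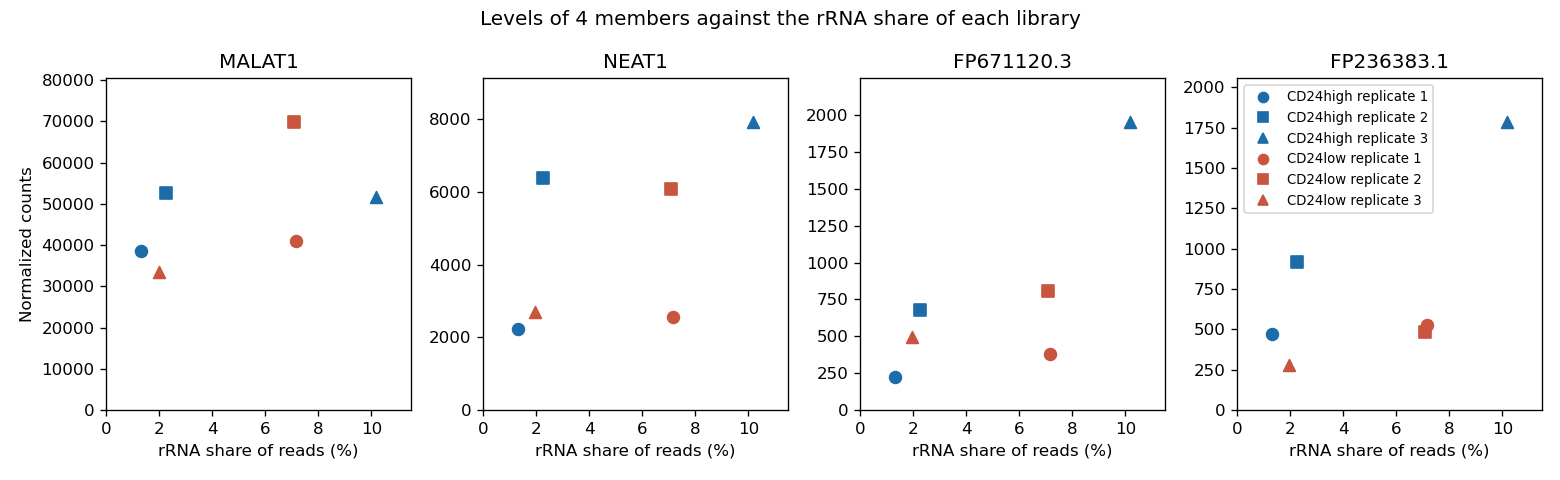
Normalized counts of MALAT1, NEAT1, FP671120.3 and FP236383.1 against the share of each library's reads in genes of rRNA type (%); each point is a library, coloured by fraction. CD24high replicate 3, at a share of 10.2%, is the highest library for NEAT1, FP671120.3 and FP236383.1 but not for MALAT1.

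Other members share sequence with genes outside the members. AC245041.1 (chr10:47970043-47973496, minus strand) had 611, 339 and 599 normalized counts in CD24high and 381, 172 and 381 in CD24low. The overlapping gene AC245041.2 on the same strand was at 474 ± 118 and 304 ± 107 and shares 60.9% of its 31-mers with ANXA8, a membrane-binding annexin elsewhere on chromosome 10. ANXA8 itself was at 2249 ± 329 and 1319 ± 212, and passed DESeq2 (difference -0.77, limma adjusted p = 0.095, DESeq2 adjusted p = 5.71e-04). AC245041.1 and AC245041.2 differed by -0.77 and -0.68, with overlap and with DESeq2 adjusted p of 0.188 and 0.218. Both were called when libraries were paired by number. How far reads of ANXA8 entered AC245041.2 was not tested; in AC245041.1, 0 31-mers of its longest transcript occurred in a gene elsewhere in the genome.

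FAM157C (chr16:90102271-90178344, plus strand) and LINC01001 (chr11:127204-139612, minus strand), both near a chromosome end, share 81.9% and 90.9% of their 31-mers with other genes. FAM157C had 210, 355 and 402 in CD24high and 156, 208 and 213 in CD24low, a difference of -0.70 (SE 0.24, limma adjusted p = 0.265, DESeq2 adjusted p = 0.0944). CD24high 1 lay within the CD24low range, and the other 2 CD24high libraries were above it. FAM157C was called when libraries were paired by number. LINC01001 had 172, 305 and 446 in CD24high and 185, 243 and 162 in CD24low, a difference of -0.56 (SE 0.31).

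Since rRNA shares differed between libraries, each member was also compared within libraries of similar share. The low-share set had CD24high 1 and 2 and CD24low 3, and the high-share set CD24high 3 and CD24low 1 and 2, so neither gives a test. In both sets 34 members were lower in CD24low and 17 higher, and 32 had opposite signs. The matching counts over all genes tested are not given, and members of a family can share reads. No common direction of the members is therefore read from these counts. The medians were -0.10 in both sets, where all genes tested had 0.00 and 0.01. MANCR differed by -0.37 in the low-share and -1.31 in the high-share set, LNCAROD by -0.37 and -0.97, LINC00472 by -0.15 and -0.93, and AL590004.3 by -0.80 and -0.46. SNHG19 differed by 0.33 and 0.48. FP671120.3 changed sign, at 0.35 and -1.82.

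**Figure D5:**
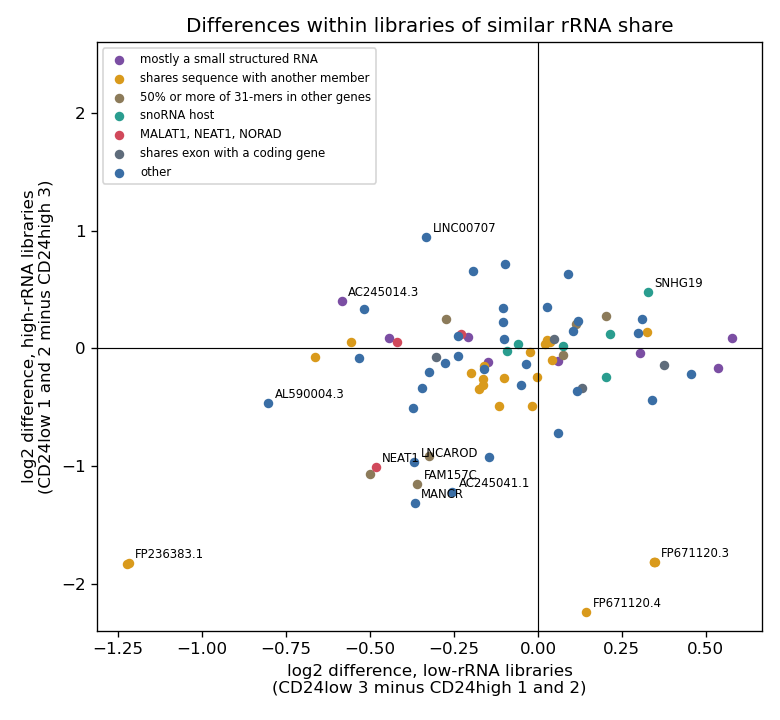
The log2 difference, CD24low minus CD24high, of each member in the 3 libraries of high rRNA share (vertical axis) against that in the 3 libraries of low rRNA share (horizontal axis), coloured by kind of gene. MANCR and LNCAROD are negative on both axes, and FP671120.3 and FP671120.4 are negative only on the vertical axis.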

How the data were processed

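RNA was measured in 3 CD24low and 3 CD24high libraries, grouped by their labels. The deposited unit is a signal: read counts per gene after division by the size factor of each library (DESeq2, per the submitters' processing notes). STAR 2.5.2, R 3.5.0 and hg38 also stand in those notes. For the read counter, its strand setting and its use of multi-mapped reads, nothing is stated in the sources used. Whole reads were recovered for 100% of values within 0.1 reads, and 1 read was worth 0.83 to 1.46 normalized counts.

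Of the 58381 IDs, 58216 matched GENCODE 29 without their version. limma 3.58.1 with a mean-variance trend was run in R 4.3.3 on log2 (normalized count + 1) for a two-sided comparison of the 2 groups over 16047 genes with a mean of at least 10. DESeq2 1.42.0 and edgeR 4.0.16 were run on recovered reads. The models were tested on simulated data. Sharing of 31-mers was counted over all GENCODE 29 transcripts. Tables were made in Python 3.11.15 (pandas 2.3.3; numpy 2.4.6) and plots with matplotlib 3.10.9.

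The members and lists were chosen with earlier results of these data known. Named genes were MALAT1, NEAT1 and NORAD, the 12 highest members, up to 10 per direction with the largest difference among those whose groups do not overlap, any past limma or DESeq2, the 3 on each side of the limit, neighbours, and up to 2 per list with the smallest p. Other names were chosen after their values were seen. Alternatives covered pseudocounts (0.5, 5), filters, scalings, tools, the replicate block, rRNA share, left-out libraries and the limit for membership (50, 200).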

Additional observations from a re-analysis of the deposited data

How the results depend on the processing

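No member passed limma under other pseudocounts, filters, scalings, without the trend, or with the rRNA split as a covariate. Leaving out 1 library gave 0 to 1 members (MANCR, without CD24low replicate 3). The labels do not say that a replicate number marks a shared batch. Deviations of same-numbered libraries correlated at 0.27, 0.30 and 0.05; every library correlated best with its own number except CD24low 3, which correlated best with CD24high 1 (0.08). The libraries were not treated as paired. With the replicate block, limma and edgeR each called 5 of the 83 members, beside 716 and 705 of the 16047 genes tested. The 5 were all lower: MANCR, LNCAROD, FAM157C, AC245041.1 and AC245041.2. The directions among all genes called with the block are not given. Without the block limma called 0 of all genes, but 164 of 31231 with no filter, 366 without CD24low replicate 3 and 103 without both libraries numbered 3. edgeR without the block called 0.

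The count of members higher without overlap, 4, was 2 after scaling to equal totals, 10 without both libraries numbered 3, 19 and 20 within the low and high rRNA share libraries, and 5 to 8 with 1 library left out. The count lower, 14, was 24 without both libraries numbered 3, 33 and 46 within the low and high rRNA share libraries, 22 and 6 with a membership limit of 50 (144 genes) or 200 (51 genes), and 16 to 24 with 1 library left out. Fewer libraries make separation easier, and each rRNA share set has only 1 library in 1 of its groups. The matching shares of all genes tested are not given for these other settings. These counts therefore cannot be set against a background, and no gain or loss of separation among the members is read from them. The median of -0.09 was -0.12 with equal totals, -0.13 at both other limits, and -0.123 to -0.075 with 1 library left out.

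Signs reversed for some members. MALAT1 was 0.019 with DESeq2 and 0.019 with edgeR, and 0.25 without both libraries numbered 3, where NEAT1 was 0.064, LINC00294 0.064, SNHG8 -0.077 and FP671120.3 0.51. With 1 library left out, MALAT1 ran from -0.345 to 0.184, RMRP from -0.118 to 0.035, NORAD from -0.155 to 0.040, AL356488.2 from -0.0054 to 0.30, SNHG8 from -0.012 to 0.18, SNHG9 from -0.171 to 0.0036 and FP671120.3 from -1.11 to 0.46. The cause was not tested.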
